A study of Sus scrofa with 30 samples.

Results

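Mammary tissue of sows in early lactation was compared with mammary tissue of sows in late gestation, to ask which transcripts differed between the days before and the days after farrowing. Late gestation (LG) was sampled on day 110 of gestation and early lactation (EL) on day 2 postpartum. The members were chosen by sample name: LG_1, LG_3 and LG_4 against EL_3, EL_4 and EL_6, which makes 6 of the 30 samples of the series. All 61773 transcripts of the table entered the comparison.

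The series holds RNA-seq of mammary parenchyma from 30 multiparous Danish Landrace × Yorkshire half-sibling sows, with 6 sows named for each of 5 stages. All sows were from a single farm and no treatment is named. Each sample was a piece of the parenchyma of 1 gland of a slaughtered sow, so different animals stood for the different stages and no sow was followed over time. The other stages were mid-gestation (MG, day 70), peak lactation (PL, 10 days postpartum) and early involution (W2, 2 days after weaning), and they entered the fit only to estimate the spread between samples.

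A further field of the sample records gives Mid-Gestation for the EL titles and Early Lactation for the MG titles. The titles were followed here. Within each stage, 3 of the 6 samples were near-copies of the mean of the other 3: in LG and EL the left-out samples differed from each other by a median of at most 1.83% per transcript, whereas the counted samples differed by 19.6 to 33.3%. EL_1, EL_2, EL_5, LG_2, LG_5 and LG_6 were therefore left out, which gave n = 3 in each stage.

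Around farrowing the mammary epithelium turns from building its secretory cells to secreting colostrum and then milk. The fall of progesterone and the rise of prolactin start this step, and prolactin acts through the transcription factor STAT5 on the genes of milk proteins. Milk proteins are made on the endoplasmic reticulum (ER), pass through the Golgi and are released by exocytosis, while milk fat leaves the cell as droplets wrapped in membrane. The epithelium also carries antibodies and defence proteins into colostrum, on which a newborn piglet depends because it receives no antibodies through the placenta.

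Values were analysed as deposited and are called units here. The authors call them FPKM. Each sample totals 997480 to 1002643 units, the sum expected of TPM (transcripts scaled to a fixed total), so a value is a share of all RNA molecules after correction for length. Fold changes are differences of mean log2(value + 0.5), EL minus LG, and understate changes of low values. A transcript or gene was called if its Benjamini-Hochberg adjusted p from limma was under 0.05 and its log2 fold change was 2 or more in either direction. Values of single samples are given in the order LG_1, LG_3, LG_4 and EL_3, EL_4, EL_6. Nothing in the labels says more of the replicates than that they came from separate sows.

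Luminal epithelial markers were present in all 6 samples: EPCAM was 497, 608 and 514 units in LG and 555, 754 and 583 units in EL. KRT8 and KRT18, keratins of luminal cells, lay between 26.6 and 208 units in these samples. KRT7, another luminal keratin, was listed at 0 in 5 of the 6 samples. The neutrophil gene S100A8 was at 0 in every sample, and MYH1, a skeletal muscle myosin, reached at most 0.113 units. Skin keratins stood out in LG_4, with KRT1 at 26.7 units and KRT2 at 11.6 units, against at most 2.02 and 0.384 units in the other samples.

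Samples of the 2 stages were about as like each other as samples of 1 stage. Across 21367 genes with at least 1 unit, Pearson's r was 0.851 to 0.864 among LG samples, 0.833 to 0.867 among EL samples and 0.828 to 0.876 between stages. These correlations are across genes, which are not independent replicates. EL_3 had r of 0.833 with EL_4, less than with any of the LG samples (0.838 to 0.847).

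Of the 61773 transcripts, 11 (0.0178%) were called, 4 higher (0.00648%) and 7 lower (0.0113%) in EL. Most of them were single isoforms of a gene. Without the adjustment, 894 transcripts (1.45%) had a p below 0.05 and were higher and 2142 (3.47%) were lower. Every EL sample was above every LG sample in 2.12% of transcripts and below in 8.86%.

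The largest change among the called transcripts of named genes was an exchange of isoforms in LZTS1 (chromosome 14, 4344496 to 4404208), which encodes a leucine zipper protein known as a putative tumour suppressor. The isoform XM_001925505.4 was 13.3, 12.6 and 18.7 units in LG and 0, 0 and 0.0657 units in EL, and fell by 4.86 on the log2 scale (SE 0.27, adjusted p = 1.25e-05). The isoform XM_021072721.1 was 0, 0 and 0.0190 units in LG and 8.87, 3.34 and 5.34 units in EL, and rose by 3.55 on the log2 scale (SE 0.39, adjusted p = 0.0063). In each isoform the samples of one stage were all at or near 0. Their sum, the gene's level, was 13.3, 12.6 and 18.7 units in LG and 8.87, 3.34 and 5.40 units in EL, a log2 difference of -1.34 (adjusted p = 0.578). The sum in EL was below that in LG in every sample, but it did not pass the test.

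BBIP1 (chromosome 14, 121327357 to 121348671) encodes a subunit of the BBSome, the complex that sorts cargo to cilia. Its non-coding isoform XR_002338646.1 was 0.467, 0.518 and 0 units in LG and 11.6, 10.8 and 9.91 units in EL and rose by 3.83 on the log2 scale (SE 0.41, adjusted p = 0.00586). The gene sum was 14.5, 12.3 and 16.1 units in LG and 21.7, 18.5 and 19.2 units in EL, a log2 difference of 0.46 that did not pass the test (adjusted p = 0.804). The other 6 isoforms of BBIP1 had no adjusted p below 0.880.

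AGO1 (chromosome 6, 92038104 to 92076477) encodes an Argonaute protein that carries small RNAs to their targets. Its isoform XM_005665209.3 was at 8.49, 6.93 and 7.00 units in LG and was listed at 0 in all 3 EL samples (adjusted p = 0.024). The gene sum was 8.53, 6.94 and 7.05 units in LG and 0, 0 and 0.249 units in EL, and with an adjusted p of 0.0517 it was just outside the threshold. In the other stages the sum was 1.23 ± 1.25 units in MG and 0.332 ± 0.467 in W2 (mean ± SD, n = 3) and was listed at 0 in every counted PL sample. A listing at 0 in a table without counts can be a failed estimate, and assembled isoforms are not in the sum.

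GUCY1A3 (chromosome 8, 44448758 to 44520737) encodes a subunit of soluble guanylate cyclase, the receptor of nitric oxide. The isoform XM_021100510.1 was at 6.52, 3.31 and 3.63 units in LG and listed at 0 in every EL sample (adjusted p = 0.00299). It was listed at 0 in every counted sample of MG, PL and W2 as well, so these stages added no spread to its fit. The gene as a whole was 34.5, 37.6 and 34.1 units in LG and 23.0, 30.3 and 28.4 units in EL, a log2 difference of -0.38 (adjusted p = 0.802).

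The other 6 called transcripts were assembled by the authors and carry no gene name. MSTRG.14855.3 and MSTRG.6984.7 were at 2.80 to 6.60 units in EL and at most 0.0563 units in LG. MSTRG.3335.1, MSTRG.4894.6 and MSTRG.5646.3 were at 1.66 to 15.4 units in LG and listed at 0 in all 3 EL samples. In the first pair of these loci a further isoform lay on the opposite side: MSTRG.3335.2 was 0.422, 2.98 and 0.588 units in LG and 5.95, 6.21 and 4.67 units in EL, and MSTRG.4894.5 was 2.32, 1.47 and 2.30 units in LG and 8.06, 4.49 and 7.12 units in EL. Neither of those partner isoforms passed the test (adjusted p = 0.881 and 0.842). MSTRG.8169.1 was 2.17, 3.91 and 3.20 units in LG and 0.280, 0 and 0 units in EL. In MG, PL and W2, MSTRG.5646.3 was at 0 in every counted sample. MSTRG.14855.3, MSTRG.6984.7, MSTRG.3335.1 and MSTRG.8169.1 averaged at most 0.0185 units in each of those stages. For all of these transcripts MG, PL and W2 added little or no spread to the fit.

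**Figure D1:**
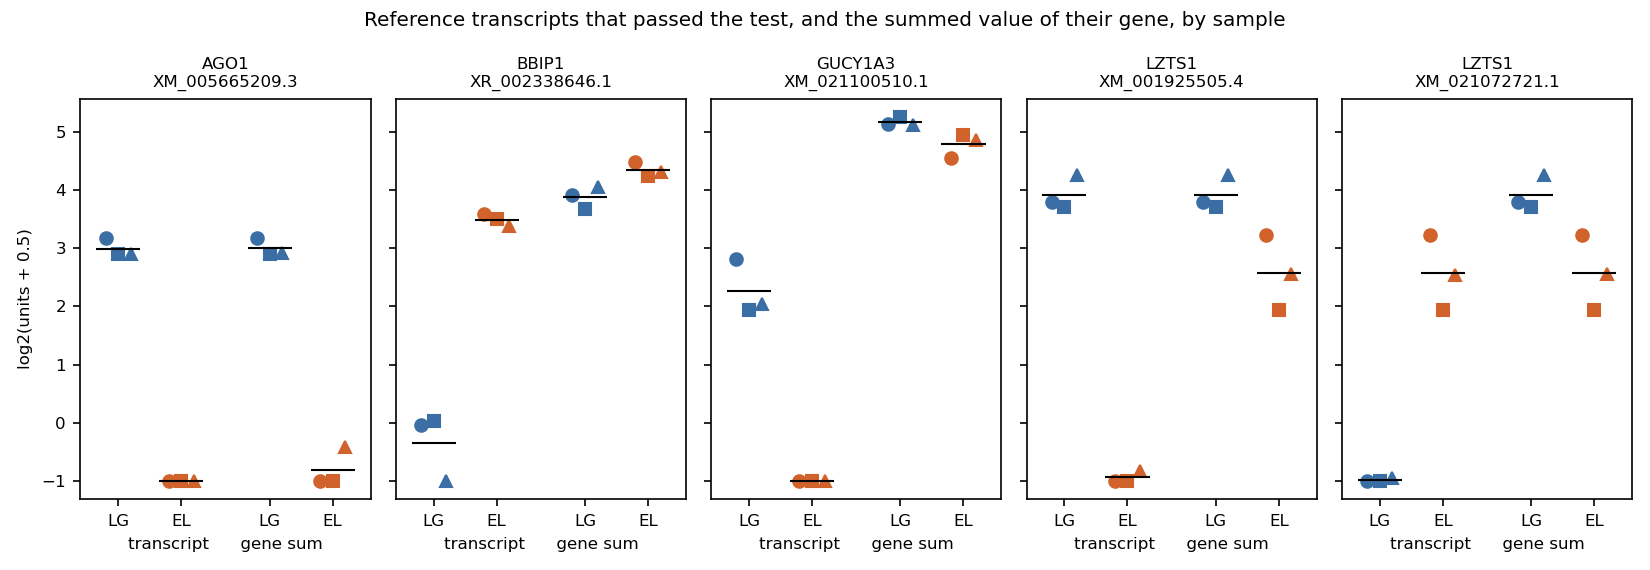
Values of the 5 reference transcripts that passed the test (left of each panel) and of the sum over their gene (right), as log2(units + 0.5), with a bar at the mean of 3 samples. Blue marks are LG_1 (circle), LG_3 (square) and LG_4 (triangle), orange marks EL_3, EL_4 and EL_6 in the same order. Transcripts at -1 on this scale were listed at 0, and the gene sums of BBIP1 and GUCY1A3 lay closer together between stages than their called isoforms.

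Summing transcripts per gene gave 25998 genes and loci, of which 4 (0.0154%) were called, 2 higher and 2 lower (0.00769% each), and all 4 were assembled loci without a name. MSTRG.14767 was at 0 in every LG sample and at 4.81, 5.84 and 4.86 units in EL, and it was at 0 in the other 3 stages as well. MSTRG.10981 was 0.633, 0.0287 and 0.0128 units in LG and 6.76, 7.16 and 5.92 units in EL, a rise of 3.39 on the log2 scale (adjusted p = 0.0212). MSTRG.8169 and MSTRG.7176 were lower in EL, the latter at 0.973, 2.23 and 3.26 units in LG and 0 in every EL sample. In MG, PL and W2, MSTRG.7176 was at 0 too and MSTRG.8169 averaged at most 0.00956 units. For MSTRG.14767, MSTRG.8169 and MSTRG.7176 those stages added little or no spread to the fit. No reference gene was called, and none had an adjusted p below 0.05 with a smaller change. Assembled isoforms of a named gene stay in their own locus, so a gene's sum covers its reference transcripts.

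More genes lay lower than higher in EL. In 554 genes (2.13%) every EL sample was above every LG sample, and in 4156 genes (16.0%) every EL sample was below. With values scaled by the median ratio of well-expressed genes, these shares were 4.25% and 9.87%, and with quantile normalization they were 6.57% and 6.76%. The median log2 difference of all genes was -0.22 as deposited, -0.07 with median ratio scaling and 0.00 with quantile normalization. Each list of genes below is read against these shares. At an unadjusted p below 0.05, 354 genes (1.36%) were higher and 1251 (4.81%) lower.

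The reference gene nearest to the threshold was CYP1A1 (chromosome 7, 58802887 to 58809155), a cytochrome P450 enzyme that is the classical target of the aryl hydrocarbon receptor. It was 0.158, 0.396 and 0.133 units in LG and 36.6, 10.4 and 4.33 units in EL, a log2 difference of 4.12 (SE 0.58, adjusted p = 0.0517). All 3 EL samples were above all LG samples, with EL_3 the highest. CYP1A1 was at 0.230 ± 0.0672 units in MG, 1.12 ± 0.796 in PL and 0.285 ± 0.127 in W2 (mean ± SD, n = 3).

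SRRM2, a protein of nuclear speckles that takes part in splicing, was 115, 125 and 122 units in LG and 50.4, 44.5 and 37.6 units in EL, a log2 difference of -1.45 (SE 0.25, adjusted p = 0.187). All 3 EL samples were far below all LG samples. Other reference genes with the smallest p among those lower in EL were MOB3B (10.5, 9.80 and 10.3 units in LG and 4.22, 3.71 and 6.24 units in EL), MAGI3 (11.09, 9.64 and 11.31 units in LG and 5.95, 4.39 and 4.42 units in EL) and ARHGEF7 (20.9, 20.9 and 17.6 units in LG and 9.12, 5.79 and 14.7 units in EL). CRIP2, a LIM domain protein, was 41.2, 25.0 and 53.9 units in LG and 2.08, 2.17 and 1.94 units in EL, and its EL samples lay close together. None of these passed the test (adjusted p = 0.327 to 0.61). They and SRRM2 were picked among genes with every EL sample below every LG sample, so that separation was part of the choice.

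NCBP2 and PIGZ lay on opposite sides and share their place in the genome. NCBP2 (chromosome 13, 133177209 to 133192935), the small subunit of the nuclear cap-binding complex, was 20.9, 22.0 and 24.6 units in LG and 0, 0 and 3.57 units in EL (adjusted p = 0.19). PIGZ (chromosome 13, 133157168 to 133191786), an enzyme of glycosylphosphatidylinositol anchor synthesis, was 1.72, 0.713 and 1.78 units in LG and 17.5, 14.9 and 15.1 units in EL (adjusted p = 0.19). The annotated regions of these genes overlap and the library kit does not mark the strand, so the reads of one cannot be told apart from those of the other with certainty. NCBP2 was listed at 0 in every counted W2 sample too, although the protein is used by all cells.

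Of the genes higher in EL with the smallest p, 3 belonged to the ER (PDIA4, SEC61B and KDELR3, described below). ST3GAL1, a sialyltransferase of O-linked glycans, was 4.60, 7.69 and 4.03 units in LG and 17.7, 9.75 and 20.2 units in EL. SLC17A9, a vesicular nucleotide transporter, was 0.919, 0 and 7.96 units in LG and 12.4, 15.0 and 17.4 units in EL. PRKCZ, an atypical protein kinase C of cell polarity, was 1.35, 2.41 and 2.98 units in LG and 18.3, 12.3 and 13.8 units in EL. TMBIM4, a Golgi protein, was 86.1, 99.9 and 88.5 units in LG and 123, 165 and 159 units in EL, and TDP2 was 23.3, 33.4 and 26.4 units in LG and 36.3, 46.7 and 41.9 units in EL. These genes were picked among those with all EL samples above all LG samples, so that separation was part of the choice. Their adjusted p lay between 0.562 and 0.693.

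Casein genes made up a larger share of units in each EL sample than in any LG sample. Caseins made up 3.94, 5.91 and 3.39% of units in the LG samples and 6.38, 11.8 and 10.2% in the EL samples, 4.41% ± 1.32 against 9.45% ± 2.78 (SD, n = 3). The smallest two-sided p of an exact permutation test of 3 against 3 samples is 0.1, so such a test could not pass 0.05 for a single value.

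PAEP, which encodes β-lactoglobulin, was the most abundant transcript in all 6 samples, at 140236, 144915 and 125190.0 units in LG and 135972, 133914 and 148574 units in EL. Its log2 difference was 0.03 (SE 0.14), and the stages overlapped. CSN2, the gene of β-casein, came second by the mean of each stage, though not in LG_4, at 21151, 31971 and 12576 units in LG and 33157, 48522 and 58718 units in EL, a log2 difference of 1.16 (SE 0.62, adjusted p = 0.79). CSN3, the gene of κ-casein, which stabilizes the casein micelle, was 7072, 9712 and 4041 units in LG and 9885, 26419.6 and 18886 units in EL, a log2 difference of 1.38 (SE 0.44, adjusted p = 0.694). For both, EL_3 exceeded the highest LG sample only slightly. With quantile normalization 1 of the 4 caseins was above LG in every EL sample, against 2 as deposited, and the log2 difference of CSN2 was 0.41. CSN1S1, an αS1-casein gene, was 7569.7, 15187 and 17152 units in LG and 19178, 12867 and 10237 units in EL, with a log2 difference of 0.12 as deposited and -0.55 with quantile normalization.

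The widest differences in mean were in genes that were uneven within EL. CSN1S2, an αS2-casein gene, was 3531, 2088 and 95.1 units in LG and 1442, 29843 and 13852 units in EL (log2 difference 3.24, SE 1.49, adjusted p = 0.79). LALBA, which encodes α-lactalbumin, the regulatory subunit of lactose synthase, was 217, 272 and 14.6 units in LG and 151, 2501 and 1988 units in EL (log2 difference 3.24, SE 1.52, adjusted p = 0.79). WAP, the whey acidic protein gene, was 123, 65.0 and 6.93 units in LG and 44.5, 632 and 621 units in EL (log2 difference 2.73, SE 1.33, adjusted p = 0.79). In all 3 genes EL_4 and EL_6 were far above every LG sample, EL_3 lay within the LG range, and LG_4 was the lowest sample. HBB, a haemoglobin gene, was 116, 124 and 46.4 units in LG and 84.9, 282 and 232 units in EL, with the lowest value in LG_4 and the highest in EL_4 and EL_6. LG_4 is also the sample with skin keratins, and the part of blood or skin RNA in these differences was not tested.

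**Figure D2:**
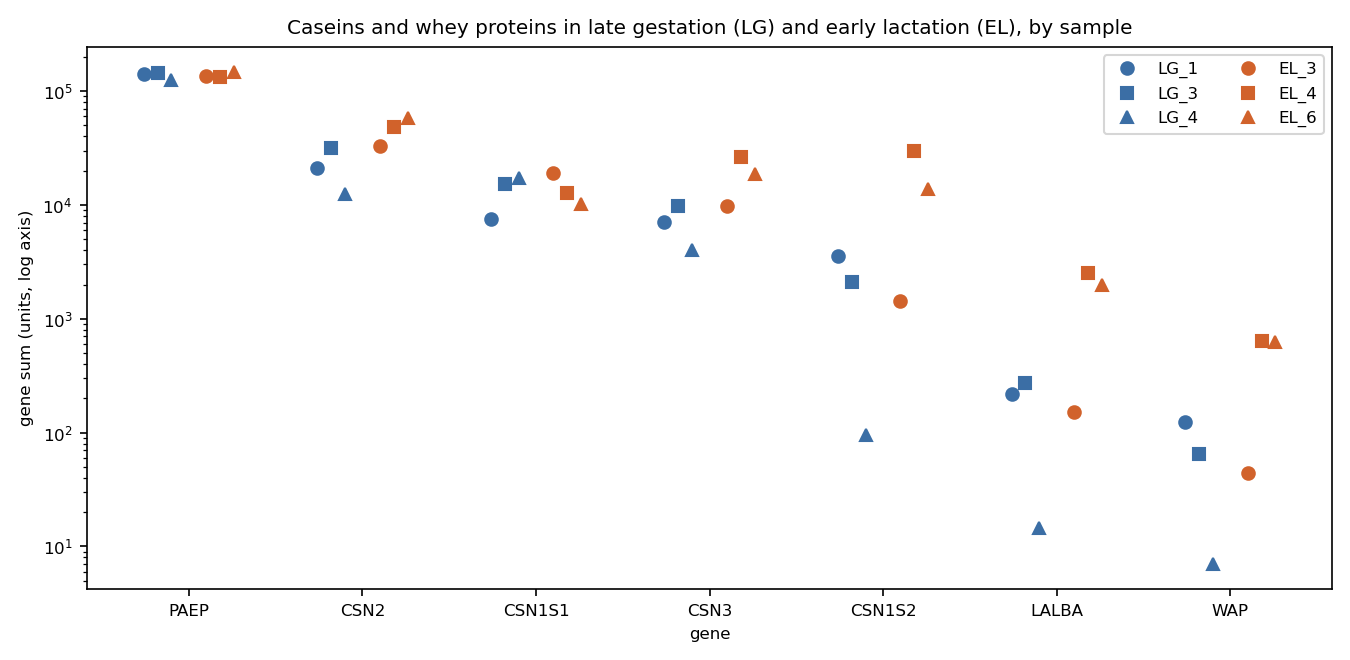
Gene sums of 4 caseins and 3 whey proteins in each sample, in units on a log axis, with LG in blue and EL in orange. In these values as deposited, PAEP overlapped between stages, CSN2 and CSN3 were separated, and in CSN1S2, LALBA and WAP the sample EL_3 (circle) lay among the LG samples.

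Among assembled transcripts, MSTRG.10840.2 averaged 0.646 units in LG and was at 0.842, 33642 and 0.788 units in EL, so that a single sow, EL_4, carried its high mean. MSTRG.10844.3 was 194, 1724 and 92.0 units in LG and 1278, 9430.5 and 7057 units in EL. The 20 most abundant transcripts together held 30.0 to 34.3% of units in LG samples and 33.4 to 41.7% in EL samples.

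Of 12 genes of colostrum defence, 2 were above and 4 below LG in every EL sample, and 1 above and 2 below with quantile normalization. HP, which encodes haptoglobin, was 96.0, 622 and 197 units in LG and 658, 1252 and 743 units in EL, a log2 difference of 1.90 (adjusted p = 0.771). PGLYRP1, a peptidoglycan recognition protein, was 2989, 3164 and 1375 units in LG and 3246, 5108 and 4911 units in EL (adjusted p = 0.79). LYZ, the gene of lysozyme, was 23.6, 20.9 and 24.0 units in LG and 8.92, 8.21 and 11.2 units in EL (adjusted p = 0.726). LTF, the gene of lactoferrin, overlapped between stages at 654, 708 and 867 units in LG and 847, 646 and 601 units in EL. Genes of antibody transport overlapped in 8 of 8: PIGR, the receptor that carries immunoglobulin A across the epithelium, was 207, 350.1 and 170.4 units in LG and 233, 453 and 337 units in EL, and JCHAIN, the joining chain of immunoglobulin A, was 969, 654 and 872 units in LG and 922, 636 and 1679 units in EL.

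Genes of the ER and the secretory pathway formed the list with the largest share of members above LG. Of 49 genes, 25 (51.0%) were above LG in every EL sample, against 2.13% of all genes, and 1 was below. With median ratio scaling and with quantile normalization 26 were above. The median log2 difference was 0.26, against -0.22 over all genes. Of these genes, 15 had an unadjusted p below 0.05, all higher in EL, and none passed the adjusted threshold (smallest adjusted p = 0.346). That number was 10 to 14 without each sample in turn. The summed level of the list was 5511, 5984 and 5617 units in LG and 6034, 6960 and 6647 units in EL.

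The chaperones of the ER came first. PDIA4, a disulfide isomerase, was 124, 122 and 122 units in LG and 169, 181 and 198 units in EL (log2 difference 0.57, SE 0.12, adjusted p = 0.346). HSPA5, also called BiP, the main chaperone of the ER, was 126, 145 and 146 units in LG and 183, 214 and 241 units in EL (log2 difference 0.61, SE 0.20, adjusted p = 0.711). HSP90B1, its partner of the HSP90 family, was 188, 193 and 205 units in LG and 225, 267 and 276 units in EL (log2 difference 0.38). In PDIA4 the LG samples were within 3 units of each other, and each EL sample was at least 40 units higher. The co-chaperones DNAJB11 (29.3, 30.9 and 31.4 units in LG and 39.6, 43.4 and 47.2 units in EL) and DNAJB9 (11.7, 14.2 and 15.3 units in LG and 16.4, 25.1 and 21.8 units in EL) and the nucleotide exchange factor HYOU1 (21.2, 18.2 and 21.2 units in LG and 27.5, 25.0 and 32.3 units in EL) were separated between stages too.

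Genes of protein entry into the ER lay on the same side. SEC61B, a subunit of the translocation channel, was 205, 192 and 199 units in LG and 239, 279 and 286 units in EL (log2 difference 0.43, adjusted p = 0.611). TRAM1, a membrane protein beside that channel, was 140.2, 149 and 142 units in LG and 171, 199 and 181 units in EL. The signal peptidase subunits SPCS1 (194, 209 and 197 units in LG and 222, 287 and 257 units in EL), SPCS2 (102, 109 and 112 units in LG and 132, 134 and 133 units in EL) and SPCS3 (23.5, 23.9 and 27.5 units in LG and 28.1, 28.6 and 31.5 units in EL) showed no overlap either. KDELR3, a receptor that returns escaped proteins from the Golgi to the ER, was 21.6, 17.9 and 18.5 units in LG and 23.2, 43.0 and 38.7 units in EL (log2 difference 0.79, adjusted p = 0.665), with EL_3 nearest to LG.

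SDF2L1 and CRELD2, known as targets of the unfolded protein response, had the largest log2 differences among members higher in EL. SDF2L1 was 5.21, 3.35 and 3.01 units in LG and 7.27, 9.88 and 11.3 units in EL (log2 difference 1.21, SE 0.33, adjusted p = 0.665), and CRELD2 was 7.39, 10.8 and 6.20 units in LG and 20.6, 15.5 and 14.6 units in EL (log2 difference 1.03, SE 0.38, adjusted p = 0.771). Of the sensors that start this response, EIF2AK3 (PERK) was 7.35, 7.41 and 7.76 units in LG and 9.17, 8.36 and 9.77 units in EL and ATF6 was 21.3, 21.2 and 21.9 units in LG and 12.6, 14.6 and 18.2 units in EL. ATF6 was the single member below LG in every EL sample. The largest difference in size was that of SEC11A, a signal peptidase subunit, on the other side at 12.4, 28.4 and 33.6 units in LG and 4.16, 5.41 and 31.9 units in EL (log2 difference -1.28, adjusted p = 0.79), with EL_6 among the LG samples. XBP1, the transcription factor of a further branch, overlapped at 677, 1205 and 766 units in LG and 826, 1345 and 959 units in EL. In 31 of the 49 genes the mean was highest in PL among the 5 stages, and in 6 it was highest in EL.

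**Figure D3:**
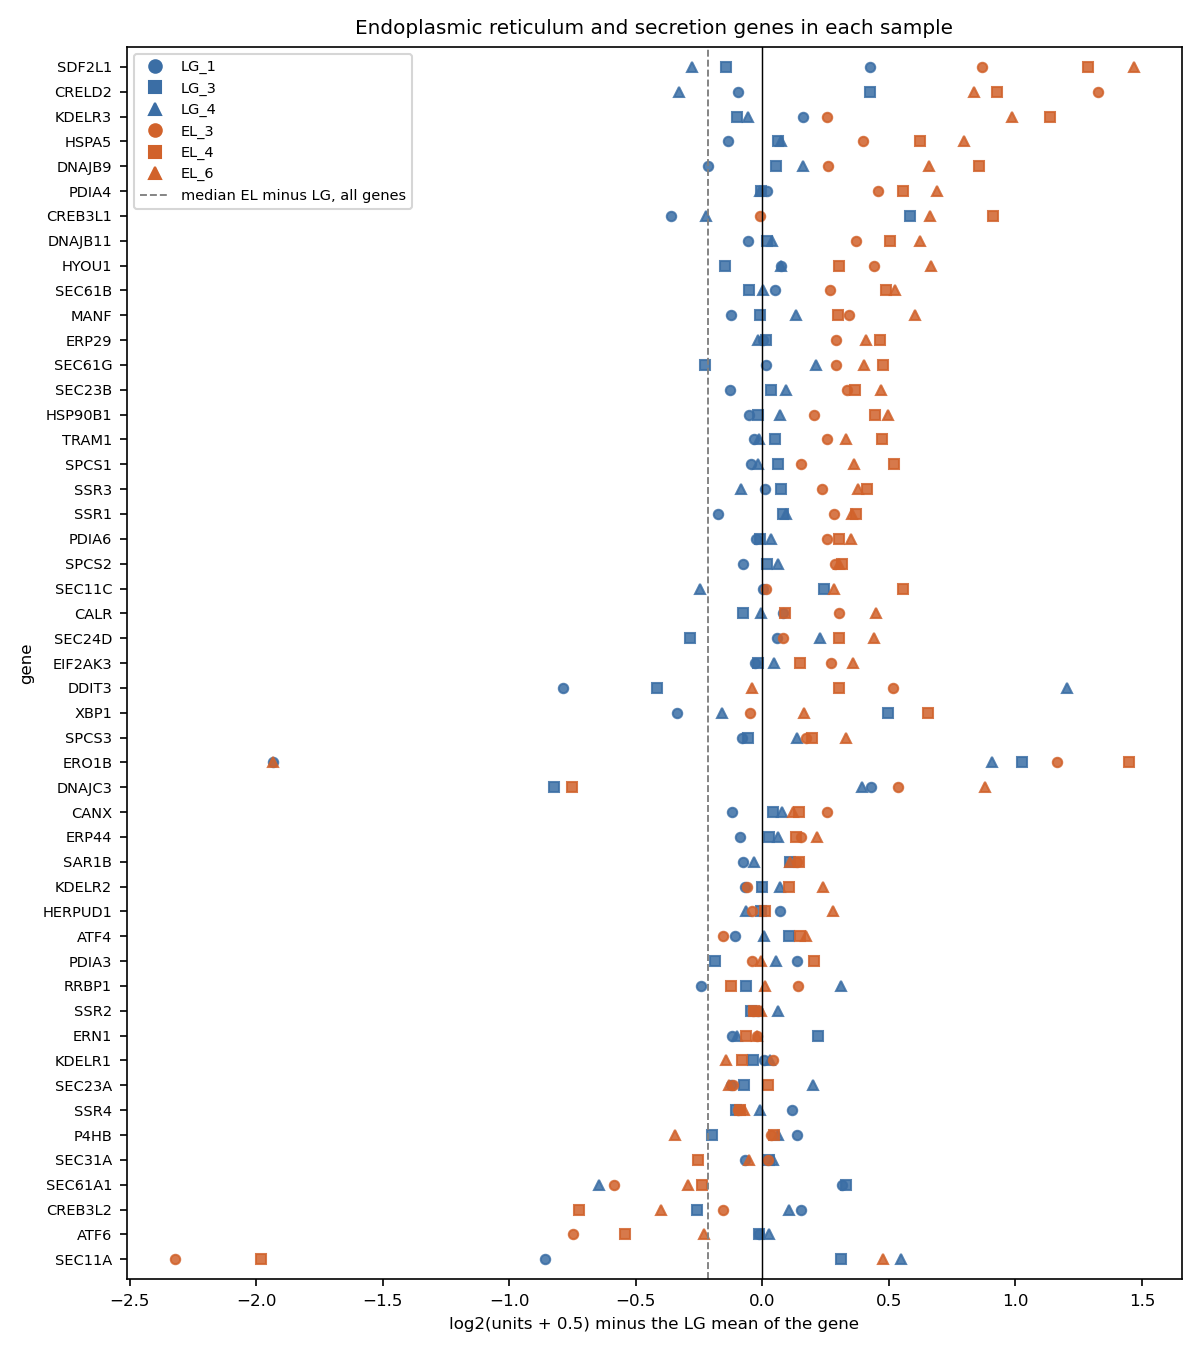
Each of 49 genes of the ER and secretion, with 6 samples as log2(units + 0.5) minus the gene's mean in LG (blue LG, orange EL, sample symbols in the key). The dashed line is the median difference of all genes, -0.22, and in 25 genes every orange mark lies to the right of every blue mark.

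Interferon-stimulated genes formed the list with the largest share of members below LG. These genes are switched on by type I interferon through transcription factors that include STAT2 and IRF9, and many of their products block viruses. Of 35 genes, 25 (71.4%) were below LG in every EL sample and none was above, against 16.0% and 2.13% of all genes. With median ratio scaling 23 and with quantile normalization 22 were below. The median log2 difference was -0.91, and -0.79 and -0.69 under those scalings. An unadjusted p below 0.05 was reached by 19 genes, all lower in EL, and none passed the adjusted threshold. That number was 11 without EL_3 and 11 without EL_4, and 13 to 17 without each of the other samples.

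IFI6, an interferon-induced protein of mitochondria and ER, was 708, 315 and 704 units in LG and 71.9, 54.4 and 179 units in EL, a log2 difference of -2.59 (SE 0.59, adjusted p = 0.494). The lowest LG sample was above the highest EL sample. In the other stages IFI6 was at 87.3 ± 37.9 units in MG, 139 ± 103 in PL and 86.1 ± 39.3 in W2 (mean ± SD, n = 3). The summed level of the list was 1428, 1028 and 1441 units in LG and 492, 471 and 695 units in EL. Without IFI6 it was 719.7, 712 and 737 units in LG and 420.1, 417 and 516 units in EL.

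Genes that sense viral RNA were separated between stages. DDX58, the sensor RIG-I, was 9.19, 11.5 and 16.9 units in LG and 1.29, 4.44 and 5.47 units in EL (adjusted p = 0.726). IFIH1, the sensor MDA5, was 5.08, 6.99 and 7.00 units in LG and 3.57, 3.00 and 3.51 units in EL (adjusted p = 0.771). EIF2AK2, the kinase PKR, was 12.3, 11.4 and 15.3 units in LG and 7.03, 5.45 and 8.66 units in EL (adjusted p = 0.771). Their log2 differences were -1.75, -0.82 and -0.85.

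The effectors lay on the same side. IFIT1, which binds viral RNA, was 11.2, 14.0 and 19.0 units in LG and 5.01, 5.36 and 5.97 units in EL (log2 difference -1.33, adjusted p = 0.61), and IFIT3 was 10.00, 12.4 and 15.0 units in LG and 6.04, 4.39 and 5.15 units in EL (log2 difference -1.18). RSAD2, the antiviral enzyme viperin, was 6.29, 6.98 and 8.09 units in LG and 1.67, 1.57 and 3.20 units in EL (log2 difference -1.57, adjusted p = 0.726). CMPK2, a mitochondrial nucleotide kinase, was 9.41, 8.52 and 10.3 units in LG and 3.38, 3.11 and 4.49 units in EL (log2 difference -1.26). MX1, a GTPase against influenza viruses, was 31.8, 28.3 and 21.1 units in LG and 4.77, 5.59 and 13.4 units in EL and ISG15, a ubiquitin-like modifier, was 4.52, 3.60 and 8.69 units in LG and 0.840, 0.252 and 2.49 units in EL. In MX1 and ISG15 EL_6 was the EL sample nearest to LG.

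Regulators of the pathway were on the same side. IRF9 was 40.8, 32.1 and 48.7 units in LG and 22.6, 17.0 and 21.3 units in EL and IRF7 was 17.6, 13.4 and 16.2 units in LG and 6.16, 6.20 and 9.81 units in EL, with log2 differences of -0.97 and -1.06. USP18, which dampens interferon signalling, was 14.8, 13.6 and 17.8 units in LG and 5.04, 5.33 and 9.19 units in EL. STAT2 differed least of these, at 36.2, 35.7 and 35.6 units in LG and 30.7, 28.0 and 28.0 units in EL (log2 difference -0.31). Members that overlapped between stages included OAS1, OAS2, IFI44, CXCL10 and GBP2.

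The mean was highest in LG among the 5 stages for 24 of the 35 genes. The sum without IFI6 was 723 ± 12.5 units in LG and 451 ± 56.2 in EL, beside 516 ± 45.6 for MG, 449 ± 46.5 for W2 and 581 ± 305 for PL (mean ± SD, n = 3). LG lay above MG, EL and W2 in every sample, and PL ranged on both sides of it.

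**Figure D4:**
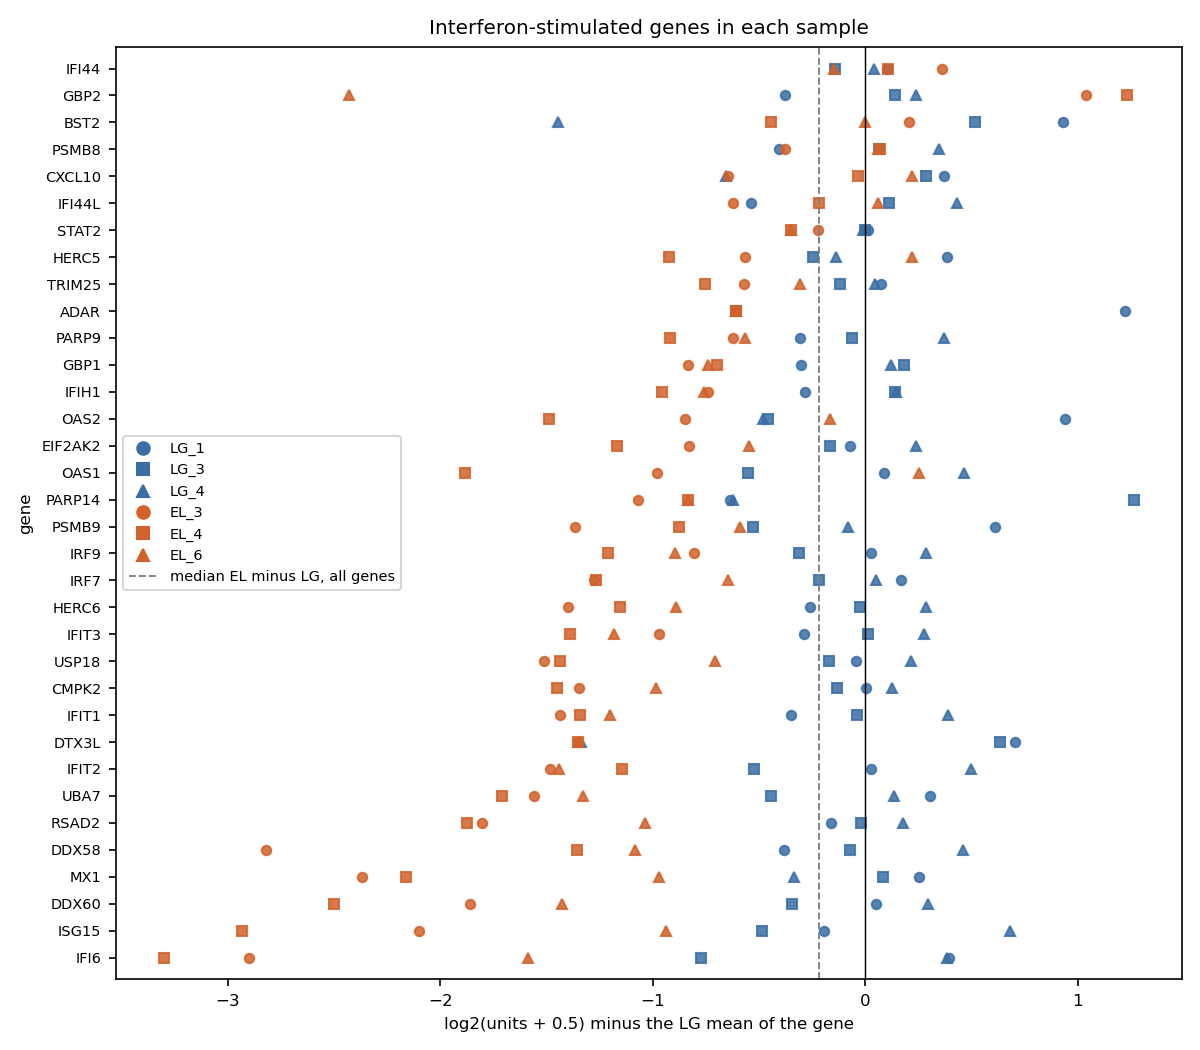
Interferon-stimulated genes, 34 of the 35, with 6 samples as log2(units + 0.5) minus the gene's mean in LG (blue LG, orange EL, sample symbols in the key). In 24 genes every orange mark lies to the left of every blue mark, and for most of them also to the left of the dashed line, the median difference of all genes.

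Interferon also induces some genes of antigen presentation. Of 24 antigen presentation genes, 10 (41.7%) were below LG in every EL sample and none above, with a median log2 difference of -0.45. Unlike most interferon-stimulated genes, few of them had their highest mean in LG: 3 of the 24, against 13 with the highest mean in MG. B2M, the light chain of class I molecules, was 523, 499.7 and 663 units in LG and 356, 303 and 376 units in EL (log2 difference -0.70, adjusted p = 0.79). CD74, the invariant chain of class II, was 332, 284 and 388 units in LG and 250.3, 203 and 244 units in EL (log2 difference -0.52, adjusted p = 0.783). The class II genes SLA-DRA (271, 251 and 305 units in LG and 226, 180.3 and 206 units in EL) and SLA-DQA1 (204, 179 and 197 units in LG and 134, 130.1 and 155 units in EL) and the peptide transporter TAP2 (30.2, 31.5 and 30.9 units in LG and 19.8, 17.7 and 22.0 units in EL) did not overlap between stages. Here 6 genes had an unadjusted p below 0.05, but 1 without EL_4, 2 without LG_1 and 3 without LG_4.

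Macrophage markers lay on the same side, with 5 of 12 below LG in every EL sample (3 with quantile normalization) and 12 of 12 with a negative difference. CSF1R, the receptor of the macrophage growth factor, was 11.8, 10.4 and 14.0 units in LG and 2.90, 2.29 and 6.55 units in EL (log2 difference -1.62, adjusted p = 0.693), and TYROBP was 20.2, 17.3 and 24.8 units in LG and 16.0, 11.0 and 12.3 units in EL. CD163 (11.2, 10.5 and 14.2 units in LG and 12.6, 8.20 and 10.5 units in EL) and C1QA (103, 84.8 and 140.2 units in LG and 108, 64.0 and 86.0 units in EL) overlapped. The list's summed level was 467, 368 and 563 units in LG and 406, 246 and 341 units in EL, and no marker of the list was at 0 in all samples. In tissue samples fewer cells of a type and less RNA per cell cannot be told apart. Whether the number of macrophages took part in the lower interferon-stimulated and antigen presentation genes was not tested.

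T cell genes CD3D (3.10, 3.45 and 2.99 units in LG and 1.92, 2.72 and 2.45 units in EL) and CD3E (6.77, 8.13 and 6.37 units in LG and 3.44, 4.88 and 5.45 units in EL) and the cytotoxic cell gene NKG7 (7.20, 5.53 and 7.56 units in LG and 2.95, 4.37 and 4.64 units in EL) were also below LG in every EL sample. The list of lymphocytes and plasma cells had 5 of 18 below and a median log2 difference of -0.25, close to that of all genes. With median ratio scaling 3 and with quantile normalization 0 of them were below. CCL24, an eosinophil chemokine, was 10.8, 4.91 and 6.32 units in LG and 0.596, 2.83 and 1.94 units in EL (log2 difference -1.85, adjusted p = 0.665). Of 24 chemokines, 4 (16.7%) were below and none above, near the 16.0% of all genes below. The median log2 difference of the chemokines was -0.24, close to the -0.22 of all genes.

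Milk fat genes were mixed. XDH, an oxidoreductase that also anchors the membrane of the milk fat globule, was 451, 743 and 270.4 units in LG and 809.6, 1765 and 1294 units in EL (log2 difference 1.45, SE 0.51, adjusted p = 0.749). MFGE8, a globule membrane protein, was 1011, 1125 and 805 units in LG and 1204, 1809.6 and 1371 units in EL (log2 difference 0.57). BTN1A1, the butyrophilin that binds XDH, overlapped between stages at 2.82, 16.8 and 3.38 units in LG and 0.808, 4.82 and 0.311 units in EL, and PLIN2, which coats lipid droplets, overlapped at 1347, 1230.1 and 1317 units in LG and 1321, 1006 and 1132 units in EL. XDH and MFGE8 were the members of 11 with every EL sample above LG.

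For fatty acid uptake and triglyceride assembly, 2 of 21 genes were above and 1 below (none below under either scaling). ACSL3, which activates long-chain fatty acids, was 96.4, 104 and 89.9 units in LG and 133, 240.1 and 224 units in EL (log2 difference 0.99, adjusted p = 0.79). FABP3, a fatty acid carrier and the most abundant member, was 5699, 4529 and 4023 units in LG and 5757, 6278 and 6986 units in EL (log2 difference 0.43, adjusted p = 0.795), with EL_3 barely above LG_1. In fatty acid synthesis ACLY was the gene of 18 above LG in every EL sample as deposited, at 81.0, 71.6 and 80.8 units in LG and 93.7, 88.2 and 91.7 units in EL, and MLXIPL, a transcription factor of the pathway, the gene below, at 0.575, 0.733 and 0.751 units in LG and 0.339, 0.325 and 0.316 units in EL. With median ratio scaling 3 and with quantile normalization 4 of these genes were above.

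In cholesterol synthesis 5 of 25 genes (20.0%) were above in every EL sample, namely HMGCS1, MVK, CYP51, EBP and MSMO1, and 2 were below. With median ratio scaling 6 were above and 1 below, and with quantile normalization 8 were above and 1 below. HMGCS1, an early enzyme of the pathway, was 26.0, 29.0 and 24.1 units in LG and 30.9, 48.4 and 44.7 units in EL, and CYP51, a later one, was 16.4, 22.9 and 21.6 units in LG and 24.4, 43.5 and 31.6 units in EL. SCAP, the escort of the transcription factor SREBP, lay on the other side at 26.9, 25.2 and 26.2 units in LG and 21.4, 20.0 and 21.6 units in EL. The median log2 difference of the list was -0.00109 as deposited and 0.17 with median ratio scaling.

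Genes of glucose uptake and lactose synthesis, LALBA included, had 5 of 18 (27.8%) below and none above, against 16.0% and 2.13% of all genes. There were 4 below and 1 above with median ratio scaling and 3 below and 1 above with quantile normalization. The median log2 difference of the list was 0.03, against -0.22 for all genes. HK1, the first enzyme of glycolysis, was 26.6, 21.8 and 29.6 units in LG and 19.9, 15.8 and 18.0 units in EL, and SLC2A3, a glucose transporter, was 2.97, 3.22 and 3.19 units in LG and 2.77, 1.95 and 1.90 units in EL. The EL sample nearest to LG was EL_3 in HK1 and in SLC2A3. Amino acid transporters had 1 above and 1 below of 23, but 3 above with median ratio scaling and 5 above with quantile normalization and none below under either. Vitamin and metal carriers had none of 21 on either side as deposited, and 1 and 2 above under those scalings.

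Among hormone signals, most genes overlapped between stages. Of 14 genes of prolactin and STAT5 signalling, IGF1R, the receptor of insulin-like growth factor 1, was the member below in every EL sample, at 14.3, 14.9 and 12.9 units in LG and 7.35, 6.52 and 9.43 units in EL (log2 difference -0.83, adjusted p = 0.79). STAT5A and STAT5B, which are closely similar in sequence so that their split is uncertain, were 70.7, 9.84 and 8.74 units in LG and 9.79, 17.9 and 76.8 units in EL and 146, 83.7 and 165 units in LG and 155, 61.9 and 112 units in EL. ELF5, a transcription factor of secretory cells, was 166, 169 and 158 units in LG and 136, 196 and 408 units in EL, with EL_6 apart from the others. Among 15 genes of the oestrogen, progesterone and RANKL pathways, ID4, an inhibitor of helix-loop-helix factors, was below at 28.3, 26.6 and 27.7 units in LG and 16.8, 17.8 and 14.6 units in EL (log2 difference -0.73, adjusted p = 0.711).

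Of 14 genes of the EGF family, 1 was above and 2 were below LG in every EL sample, with a median log2 difference of -0.26. Under either scaling 1 was above and none below. EGF, whose product is found in colostrum, was the member above, at 0.00821, 0.477 and 0 units in LG and 0.944, 1.53 and 1.42 units in EL (log2 difference 1.50, adjusted p = 0.696). ERBB3, a receptor and the most abundant member, was below at 126, 107 and 96.4 units in LG and 80.7, 82.4 and 69.6 units in EL (log2 difference -0.49, adjusted p = 0.826). Of the IGF system, 6 of 15 genes (40%) were below in every EL sample, against 16.0% of all genes, and 5 below and 1 above with quantile normalization. The median log2 difference of the list was -0.13, against -0.22 for all genes, and 0.0025 with median ratio scaling. IGFBP4 was 34.1, 29.7 and 35.9 units in LG and 23.8, 17.0 and 22.4 units in EL (log2 difference -0.66) and IGFBP7 was 352, 325 and 521 units in LG and 296, 241 and 264 units in EL (log2 difference -0.55, adjusted p = 0.771). IGF1 and IGF2, the ligands, overlapped.

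Tight junctions, which close around farrowing and keep milk in the lumen, had 9 of 19 genes (47.4%) below in every EL sample and none above, a count that became 6 below and 1 above with median ratio scaling and 5 below and 2 above with quantile normalization. The median log2 difference was -0.38, and 2 genes had an unadjusted p below 0.05. TJP1, the scaffold ZO-1, was 35.3, 36.5 and 39.7 units in LG and 32.7, 17.0 and 24.5 units in EL (log2 difference -0.62, adjusted p = 0.79). CLDN8, a claudin of tight epithelia, was 115, 78.7 and 91.7 units in LG and 76.6, 63.8 and 59.1 units in EL (log2 difference -0.50, adjusted p = 0.816), and JAM3, an adhesion molecule, was 9.85, 10.9 and 14.4 units in LG and 8.24, 8.45 and 7.16 units in EL. Of 16 luminal epithelial genes, 4 (25%) were below in every EL sample and none above, and 12 had a negative difference. Their median log2 difference was -0.51, and -0.37 with median ratio scaling and -0.34 with quantile normalization. KRT8 was at 157, 197 and 208 units in LG and 141, 98.6 and 94.6 units in EL. CDH1, the gene of E-cadherin, was at 188, 206 and 210.1 units in LG and 178, 134 and 142 units in EL, while EPCAM overlapped. The part of the epithelial share of the tissue in these values was not tested.

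Myoepithelial genes ACTA2 (1197, 1039.9 and 1231 units in LG and 921, 776 and 904 units in EL), CNN1 (135, 113 and 141 units in LG and 113, 90.2 and 108 units in EL) and MYLK (49.1, 57.3 and 92.4 units in LG and 13.7, 8.99 and 17.6 units in EL) were below LG in every EL sample, as were 5 of 18 of their list (3 under either scaling). CDH3, the gene of P-cadherin, was the member above LG in every EL sample, at 0, 0.0265 and 0 units in LG and 0.0336, 2.22 and 1.46 units in EL (log2 difference 1.48, adjusted p = 0.79), and the single member with an unadjusted p below 0.05. ACTA2, CNN1 and MYLK make the contractile apparatus that ejects milk. KRT5 and OXTR, the oxytocin receptor, overlapped between stages at 46.1, 78.0 and 109 units in LG and 86.1, 68.1 and 52.3 units in EL and 18.8, 17.6 and 20.0 units in LG and 20.0, 13.5 and 13.8 units in EL. Endothelial genes had 6 of 16 below, among them VWF at 18.4, 15.9 and 23.8 units in LG and 14.1, 12.6 and 13.5 units in EL and ENG at 20.9, 20.4 and 31.8 units in LG and 17.1, 15.4 and 19.9 units in EL, while PECAM1 and KDR overlapped. Under median ratio scaling 5 and under quantile normalization 2 endothelial genes were below, the latter with 1 above. FABP4, an adipocyte marker, was 635, 728 and 674 units in LG and 655, 709 and 689.6 units in EL, a log2 difference of 0.01.

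Cell division genes had 8 of 49 below and 1 above as deposited, but 1 below and 3 above with median ratio scaling and 1 below and 5 above with quantile normalization. MKI67, the proliferation marker, was the member above as deposited, at 0.476, 0.807 and 0.592 units in LG and 1.75, 4.04 and 1.07 units in EL, and MCM4, a subunit of the replicative helicase, was 2.55, 5.54 and 7.71 units in LG and 0, 0 and 0.711 units in EL (adjusted p = 0.693). Circadian genes had 5 of 19 below (3 with quantile normalization) and 1 above: the output factors DBP and TEF were 10.6, 8.78 and 13.1 units in LG and 8.52, 2.60 and 5.34 units in EL and 12.4, 10.9 and 12.3 units in LG and 8.37, 4.31 and 6.42 units in EL, and BHLHE40, a repressor of the clock, was 10.7, 8.59 and 8.90 units in LG and 12.0, 12.3 and 14.3 units in EL. The hour of sampling is not given in the sources used here. Ribosomal proteins had 16 of 82 below and none above (19.5%), with a median of -0.25, near that of all genes, and 5 below and 2 above with median ratio scaling and 13 below and 2 above with quantile normalization.

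**Figure D5:**
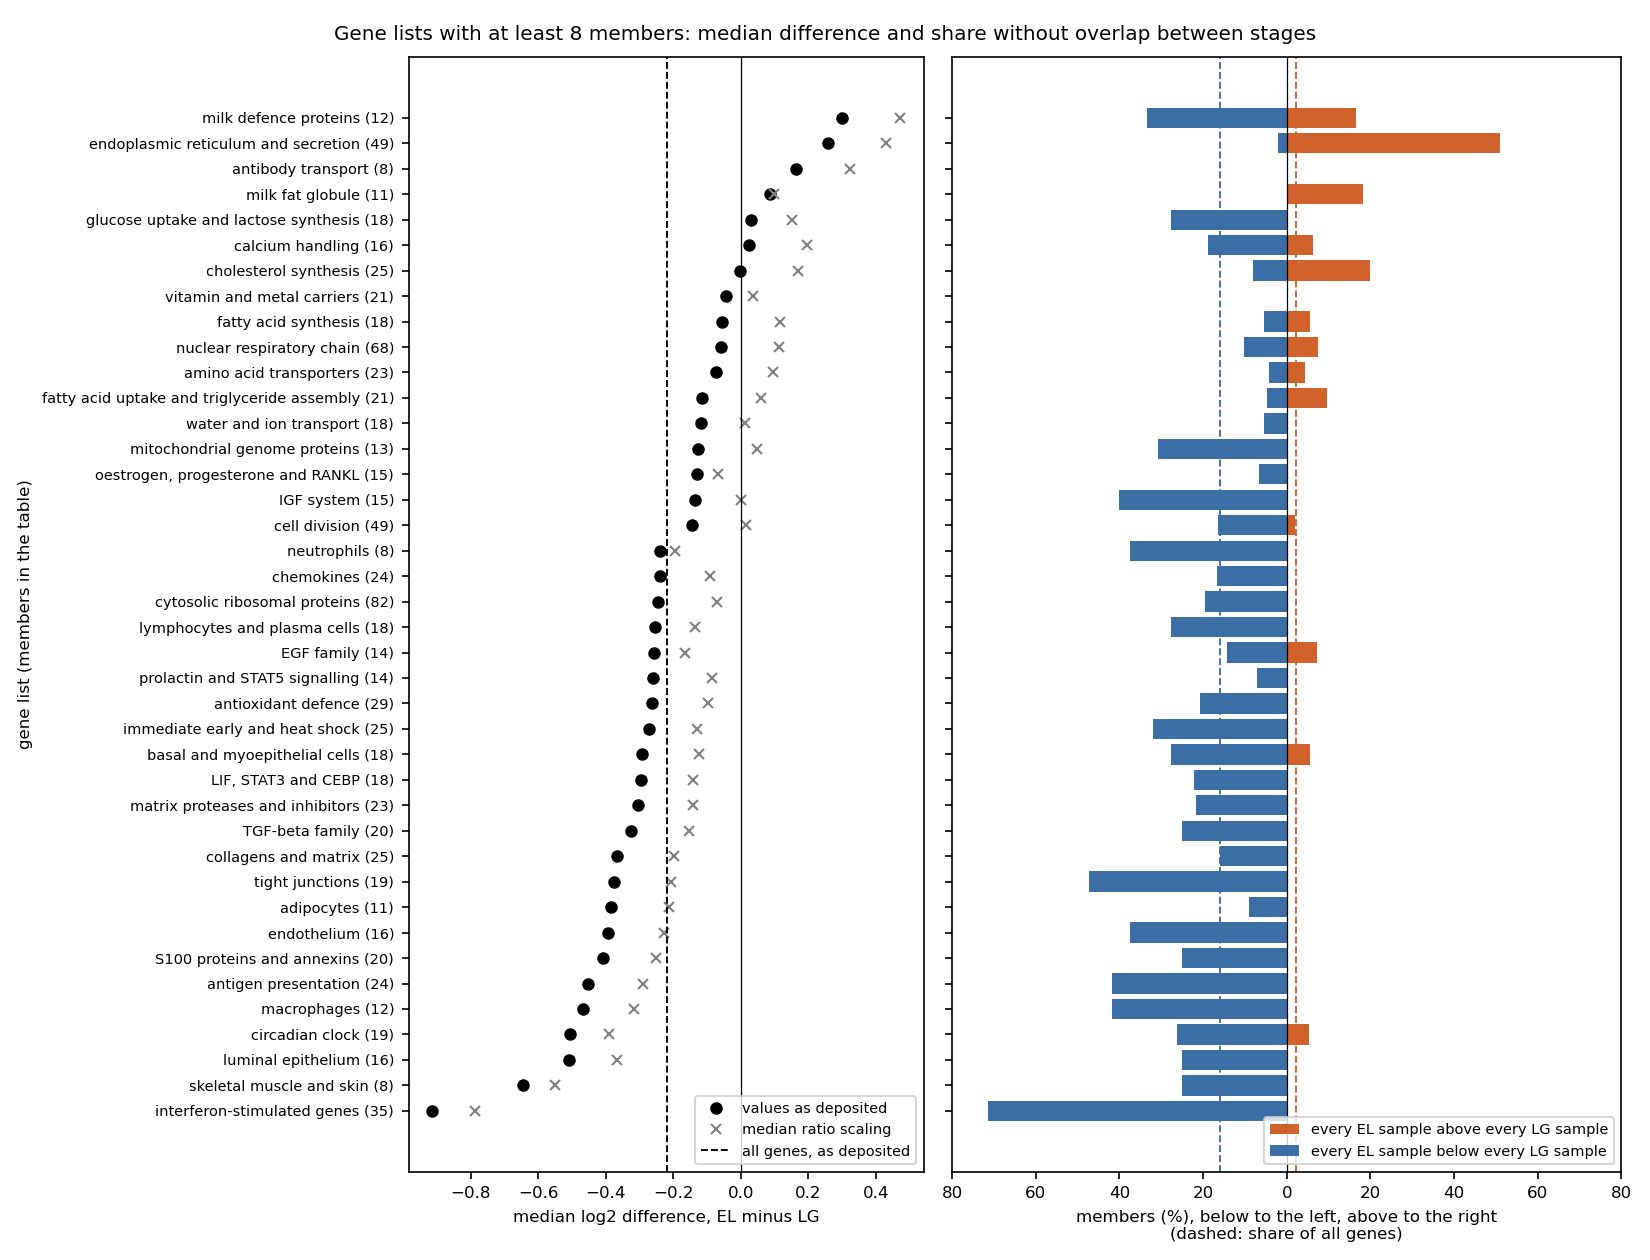
Left, the median log2 difference (EL minus LG) of each gene list with at least 8 members, as deposited (dots) and with median ratio scaling (crosses), beside the median of all genes as deposited (dashed, -0.22). Right, the percentage of members with every EL sample above (orange) or below (blue) every LG sample, with dashed lines at 2.13% and 16.0% for all genes. On the right, ER and secretion genes have the longest orange bar and interferon-stimulated genes the longest blue bar. On the left, interferon-stimulated genes have the lowest median, and milk defence proteins (0.30) and ER and secretion genes (0.26) the highest as deposited.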

How the data were processed

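RNA-seq of mammary tissue was compared between 3 EL and 3 LG samples. The authors trimmed reads with Trimmomatic after FastQC, aligned them to Sscrofa11.1 with HISAT2 and quantified transcripts with StringTie; they name RUVs for unwanted variation, and whether the deposited values include it is not given in the sources used here. The deposited values, called FPKM by the authors, sum like TPM and were treated as TPM. The table holds no counts, so depth behind a single value is unknown and precision comes from the spread between sows.

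log2(value + 0.5) was fitted with limma 3.58.1 (R 4.3.3; trended variance, eBayes), with 15 counted samples of 5 stages in a single fit and the contrast EL minus LG, for transcripts and for sums per gene, with Benjamini-Hochberg adjustment over all features. Symbols and coordinates came from RefSeq (Sscrofa11.1), where 32724 of 32726 reference identifiers matched. Gene lists were described by counts and medians over every member in the table, with no filter on values, a departure from the plan. Genes named were the called transcripts and genes, caseins and whey proteins, and the leading and the most abundant members of each list. The 20 most abundant transcripts per stage were named too. So were the 10 reference genes per direction with the smallest p, among those with separated samples and at least 10 units in the higher stage. The members EIF2AK3, BTN1A1 and further list members named for their role were chosen after their values were seen. The members and lists were chosen with earlier results of these data known. The fit was tested on simulated data with changes planted only in well-expressed features. That test therefore does not cover calls of transcripts listed at 0 throughout a stage. No batch is named in the sources used here. Near-copy samples were left out, promoter motifs were not searched, a few single-gene results are not reported here, and the alternatives are given in the closing section.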

Additional observations from a re-analysis of the deposited data

How the results depend on the processing

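The 11 called transcripts were 18 with a pseudocount of 0.1, 7 with 1, 19 with PL left out of the fit, 8 with EL and LG alone (of which 1 was among the 11), 40 to 69 without each sample in turn, 1 with the replicate number as a block and 2285 with all 6 samples per stage, where near-copies count as replicates. The cause of these shifts was not tested, except that copies narrow the spread. The 4 called genes were 8 with a pseudocount of 0.1, 7 with quantile normalization, 7 with median ratio scaling and 8 with no variance trend. With EL and LG alone 18 genes were called, of which 1 was among the 4. The number was 10 with PL left out, 1 with the replicate block and 400 with all 6 samples per stage. It was 8 to 18 without each sample in turn. Genes with an unadjusted p below 0.05 were 2679 with EL and LG alone, 3410 with PL left out, 9365 with all 6 samples, and 1141 to 2319 without each sample.

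Among the lists, interferon-stimulated genes with p below 0.05 were 11 to 17 without each sample. ER and secretion genes with p below 0.05, 15 as reported, were 23 with median ratio scaling, 27 with all 6 samples, 9 with no variance trend and 8 with the replicate block. The 2 tight junction genes became 1 with quantile normalization, 1 with median ratio scaling, 1 with no variance trend, 5 with EL and LG alone, 7 with PL left out, 12 with all 6 samples, and 1 to 3 without each sample. Antigen presentation genes were 11 with PL left out, 16 with all 6 samples and 1 to 8 without each sample. With median ratio scaling the median log2 difference became 0.32 for antibody transport, 0.060 for fatty acid uptake and triglyceride assembly, 0.43 for ER and secretion, 1.19 for blood cells and 0.11 for the nuclear respiratory chain. Without each sample the median lay between -0.12 and 0.33 for antibody transport, between -0.45 and -0.26 for immediate early and heat shock genes and between 0.56 and 1.16 for blood cells.

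Same-numbered samples did not deviate together. The correlation of deviations from the stage means was -0.10 for EL_3 with LG_3 and -0.08 for EL_4 with LG_4. The numbers were therefore not treated as pairs, and the replicate block left 1 transcript and 1 gene called. Across different numbers the correlation was 0.147 for EL_3 with LG_4, 0.148 for EL_4 with LG_3 and 0.130 for EL_6 with LG_1. The remaining pairs lay between -0.081 and -0.045. Whether samples of different number shared a batch or pairing was not tested. Of 11 named transcripts, 11 kept their direction and call with quantile normalization, median ratio scaling and no variance trend, and 10 lost the call under the block. No named gene or transcript changed direction past a threshold under the alternatives run. Promoter motifs were planned and not run.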
